A study of Mus musculus with 4 samples.

Results

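The genes described here are 34 targets and partners of the transcription factor ATF4, listed by name, that serve the cell's response to a shortage of amino acids. They were found by symbol and Entrez gene ID among the 17621 genes in the deposited expression tables, and all 34 were present. RNA came from neural stem cells in primary culture, taken from P0 mouse cortex and plated on laminin and poly-L-ornithine, in a medium with glutamine, N-2 and B27 supplements, beta-mercaptoethanol, EGF and bFGF. The study asked how depletion of the nucleoporin Seh1 alters gene expression in proliferating cells and in differentiating cells. Control cells (Ctrl) were Seh1 f/f, and depleted cells (iKO) were cmv-cre-ert,seh1 f/f, so every group carried the floxed alleles. The recombinase is named as driven by cmv, a promoter active in many cell types, and the sources used here do not say whether or when an inducer was added. Cells were taken in growth medium (day 0) or in differentiation medium, made by withdrawing EGF and bFGF (day 3). There was 1 library per group and 4 libraries in all, so no group had replicates and no test was run. A model with genotype and day alone would leave 1 residual degree of freedom, made of the difference between the days, and was not fitted. The labels do not say how many animals or cultures a library came from. Each comparison describes a pair of libraries, and intervals are 95% intervals of counting error only.

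ATF4 is the central transcription factor of the integrated stress response. When kinases that sense stress phosphorylate the initiation factor eIF2, general translation falls, while the ATF4 mRNA, which carries short upstream reading frames, is translated more. ATF4 then pairs with C/EBP and other bZIP proteins and activates genes for amino acid uptake, for synthesis of serine, proline, asparagine and cysteine, for one-carbon metabolism and, under lasting stress, for cell death. Proliferating neural progenitors depend on several of these enzymes and transporters for biomass. Seh1 is also a member of GATOR2, a complex that regulates the growth kinase mTORC1, and mTORC1 can raise ATF4 as well. RNA levels report neither the phosphorylation of eIF2 nor the amount of ATF4 protein.

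The DNA element through which ATF4 dimers are best known to act has the core TGATGNAA, where N is any base, and is called the C/EBP-ATF response element or amino acid response element. Promoter windows from RefSeq (GRCm38.p6, 250 bases before to 50 bases after each annotated transcript start, some genes having several) were matched for 29 of the 34 genes. The core was present, on either strand, in the windows of 10 of these 29 genes (34.5%), against 4.51% of 27025 mouse genes with such a window and 2.66% of the 10349 of them whose mean here reached 1 CPM (read count scaled to library size). A match is a description of these letters and not a measured binding site. The sites are shown because the core was more frequent in this group than among all genes and did not enter the expression data. The group was listed by name as targets and partners of ATF4, which acts through this core. A higher share was therefore likely from the choice of genes and is not a result of these data. The other 19 of the 29 genes had no match. Each is printed 5′ to 3′ on the gene's own strand with the core, or its reverse complement, in capitals.
Asns, chr6:7693214-7693243, minus strand: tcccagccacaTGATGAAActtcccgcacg
Atf3, chr1:191183425-191183454, minus strand: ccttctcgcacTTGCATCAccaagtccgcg
Chac1, chr2:119351038-119351067, plus strand: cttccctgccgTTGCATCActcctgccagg
Jdp2, chr12:85599372-85599401, plus strand: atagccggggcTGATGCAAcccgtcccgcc
Nupr1, chr7:126625562-126625591, minus strand: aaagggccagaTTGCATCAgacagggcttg
Pycr1, chr11:120643833-120643862, minus strand: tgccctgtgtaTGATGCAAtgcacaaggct
Slc1a4, chr11:20332699-20332728, minus strand: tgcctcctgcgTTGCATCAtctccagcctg
Slc7a11, chr3:50443661-50443690, minus strand: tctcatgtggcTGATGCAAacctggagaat
Slc7a11, chr3:50443642-50443671, minus strand: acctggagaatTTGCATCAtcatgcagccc
Trib3, chr2:152344028-152344057, minus strand: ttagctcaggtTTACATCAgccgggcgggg
Vldlr, chr19:27216809-27216838, plus strand: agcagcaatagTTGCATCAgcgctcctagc
The letter at N was C in 9 of these 11 sites, and Asns and Trib3 differed there. The Asns core began 23 bases before the transcript start and that of Trib3 lay 15 bases after it. Slc7a11 held a pair of cores facing each other, which began 66 and 47 bases before its transcript start. The Slc7a11, Jdp2 and Vldlr windows with a core belong to starts that lie inside the span of the gene, downstream of its outermost start.

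The 250 bases before that start of Slc7a11, which encodes the cystine importer, show that pair in place, and those of Chac1, which encodes an enzyme that breaks down glutathione, show its single core far upstream. Both genes are taken up again below for their levels.
Slc7a11, chr3:50443614-50443863, minus strand: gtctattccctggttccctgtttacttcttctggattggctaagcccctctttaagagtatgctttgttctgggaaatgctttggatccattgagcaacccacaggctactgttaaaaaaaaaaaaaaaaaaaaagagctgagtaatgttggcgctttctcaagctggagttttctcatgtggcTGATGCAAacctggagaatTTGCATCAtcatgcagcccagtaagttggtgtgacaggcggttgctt
Chac1, chr2:119350992-119351241, plus strand: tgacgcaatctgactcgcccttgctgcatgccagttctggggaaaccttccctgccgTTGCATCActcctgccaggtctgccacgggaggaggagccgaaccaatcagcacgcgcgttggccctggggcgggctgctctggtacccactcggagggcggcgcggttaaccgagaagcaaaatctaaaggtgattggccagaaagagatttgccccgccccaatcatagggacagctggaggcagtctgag
The start of the Chac1 core lay 193 bases before the transcript start.

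Libraries held 19611747 to 21040586 counts after rounding. Seh1l, the targeted gene, had 40.3 (Ctrl) and 19.2 (iKO) CPM at day 0 and 33.2 and 11.0 CPM after withdrawal, so both libraries labelled iKO had less of it and neither lacked it. Levels are CPM after scaling by TMM, a method that corrects for differences in library composition. A fold is the ratio of CPM, and a log2 ratio was taken after adding 1 CPM to each level. Genes at least 2-fold apart on that scale were counted, among the 12976 whose mean reached 1 CPM. Markers of neural stem cells summed to between 4718 and 5950 CPM in the 4 libraries, with members in opposite directions at day 3 (Vim 1125 in Ctrl and 2156 in iKO, Fabp7 2368 and 1367, Hes5 110.5 and 15.1). Astrocyte markers summed to 1638 CPM in Ctrl against 2618 in iKO at day 0 and 14817 against 20540 at day 3. The day 3 difference lay mostly in Apoe (6764.5 and 12096), and 0 of 6 were at least 2-fold higher or lower. Slc1a3 (5788 and 5834) and Aldoc (1671 and 1564) were close, while Aqp4 (388 and 767) and S100b (45.3 and 84.8) were higher in iKO. At day 3 neuron markers summed to 1684 CPM in Ctrl against 904 in iKO, with 3 of 5 at least 2-fold lower. Oligodendrocyte lineage markers summed to 4395 against 3344, a sum made up mostly of Olig1 (2814 and 2717), and 4 of 6 were at least 2-fold lower, among them Gpr17 (376 and 3.45), Pdgfra (128 and 5.25) and Sox10 (132 and 6.15). At day 0 already, 3 of 6 astrocyte markers were at least 2-fold higher in iKO and 3 of 6 oligodendrocyte lineage markers at least 2-fold lower. At that day 1 of 5 neuron markers was higher and 1 of 8 neural stem cell markers lower. Microglial markers summed to at most 8.81 CPM and endothelial markers to at most 2.33. Glial and neuronal markers thus differed between the libraries, and fewer cells of a type cannot be told apart from less RNA per cell in such bulk samples.

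Of the 34 genes, 33 reached a mean of 1 CPM. Atf3 was below it, and Nupr1 and Trib3 reached it only through the day 3 iKO library. Summed over the 34 genes, the level was 3432 CPM in day 0 Ctrl, 2947 in day 0 iKO, 2480 in day 3 Ctrl and 4155 in day 3 iKO. The day 3 iKO library thus had the highest sum and the day 3 Ctrl library the lowest. Slc3a2 made the largest part of the day 3 difference, at 209 CPM in Ctrl and 982 in iKO, so these sums depend strongly on 1 gene.

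**Figure D1:**
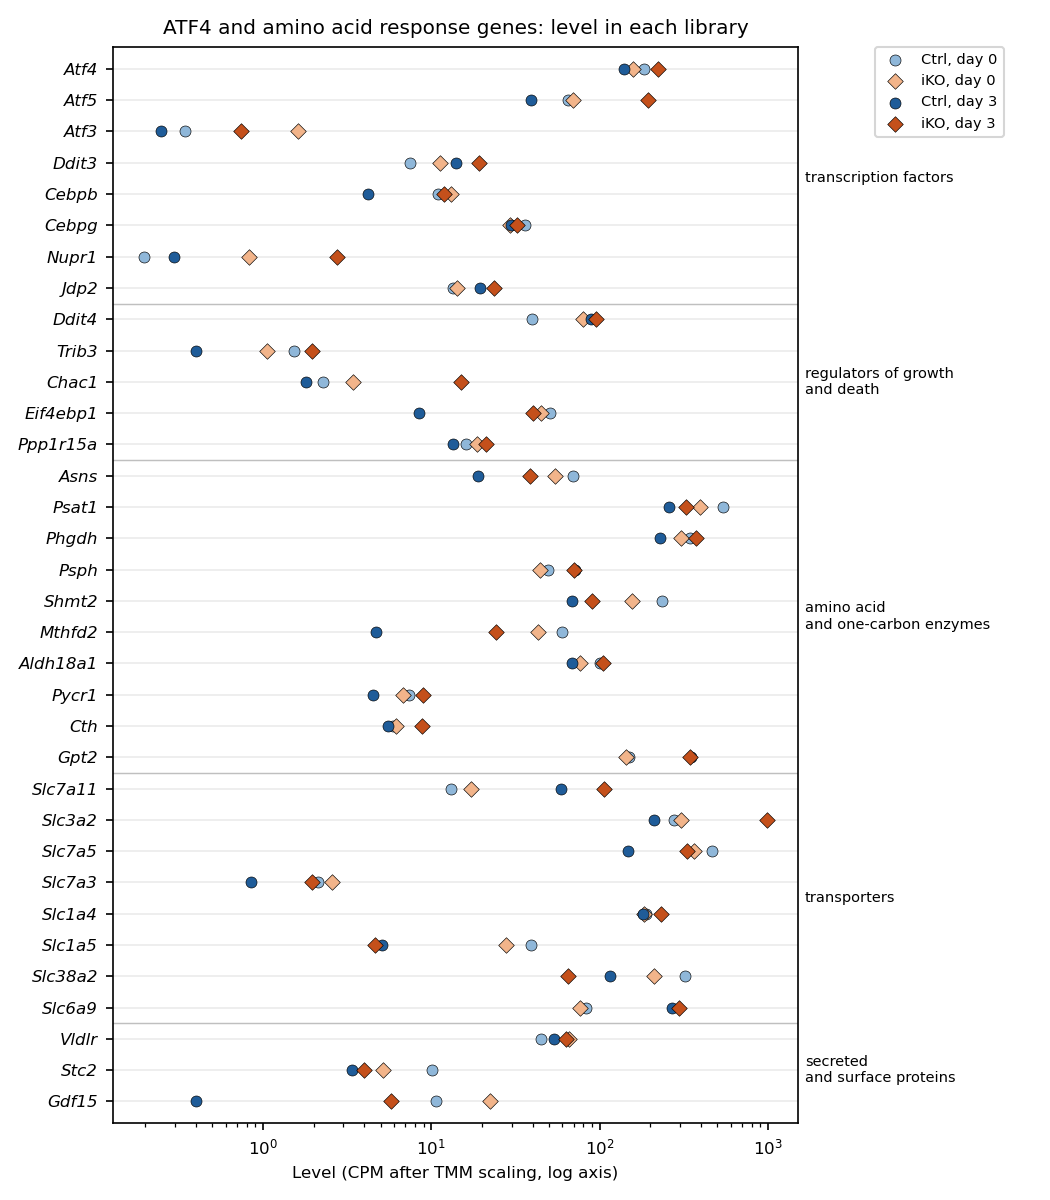
Level of each of the 34 genes (CPM after TMM scaling, log axis) in the 4 libraries, grouped by role, with circles for Ctrl, diamonds for iKO, pale symbols for day 0 and dark symbols for day 3. Slc3a2, at 982 CPM in the day 3 iKO library against 209 in day 3 Ctrl, holds the rightmost point, and for many rows the day 3 Ctrl circle is the leftmost.

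In growth medium the ratios of the group were spread around 0. At day 0, 0 of the 33 genes were past 2-fold above Ctrl, against 2.67% of all genes, and 0 were lower, against 0.331%. The median log2 ratio of the 33 was -0.10, beside -0.06 for all genes, and it became 0.01 when libraries were scaled by their totals. Counting intervals lay above 1 for 11 of the 34 genes and below 1 for 15, and held 1 for 8, and among all genes the shares were 25.8%, 39.5% and 34.6%.

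After withdrawal the group was higher in iKO. At day 3, 10 of the 33 genes exceeded Ctrl by at least 2-fold, against 6.27% of all genes, and 0 were at least 2-fold lower, against 4.76%. The median log2 ratio was 0.61, beside -0.01 for all genes, and 29 of the 33 lay above 0 where 48.7% of all genes did. Intervals lay above 1 for 28 of the 34, below 1 for 1 and held 1 for 5. Among all genes, 34.5% had an interval above 1 and 35.6% one below it. The 10 genes were Chac1, Atf5, Gdf15, Slc3a2, Mthfd2, Eif4ebp1, Nupr1, Cebpb, Slc7a5 and Trib3, in the order of their log2 ratios. Asns, at a log2 ratio of 0.98, and Pycr1, at 0.86, lay just short of the threshold, and Trib3, at 1.08, just past it. With a minimum mean of 5 CPM, which leaves out Nupr1, Trib3 and Slc7a3, 8 of 30 were past the threshold, against 5.34% of 11229 genes. Chac1, among the 8, reached that minimum only through the day 3 iKO library. Its mean was 5.61 CPM, and 2.50 CPM over the other libraries. The authors' deposited table of genes that differ at day 3 was made from the same libraries and is not separate evidence. It lists the same 10 of the 34, each with a positive log2 ratio. Of its 1774 genes, 911 have a positive and 863 a negative log2 ratio.

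**Figure D2:**
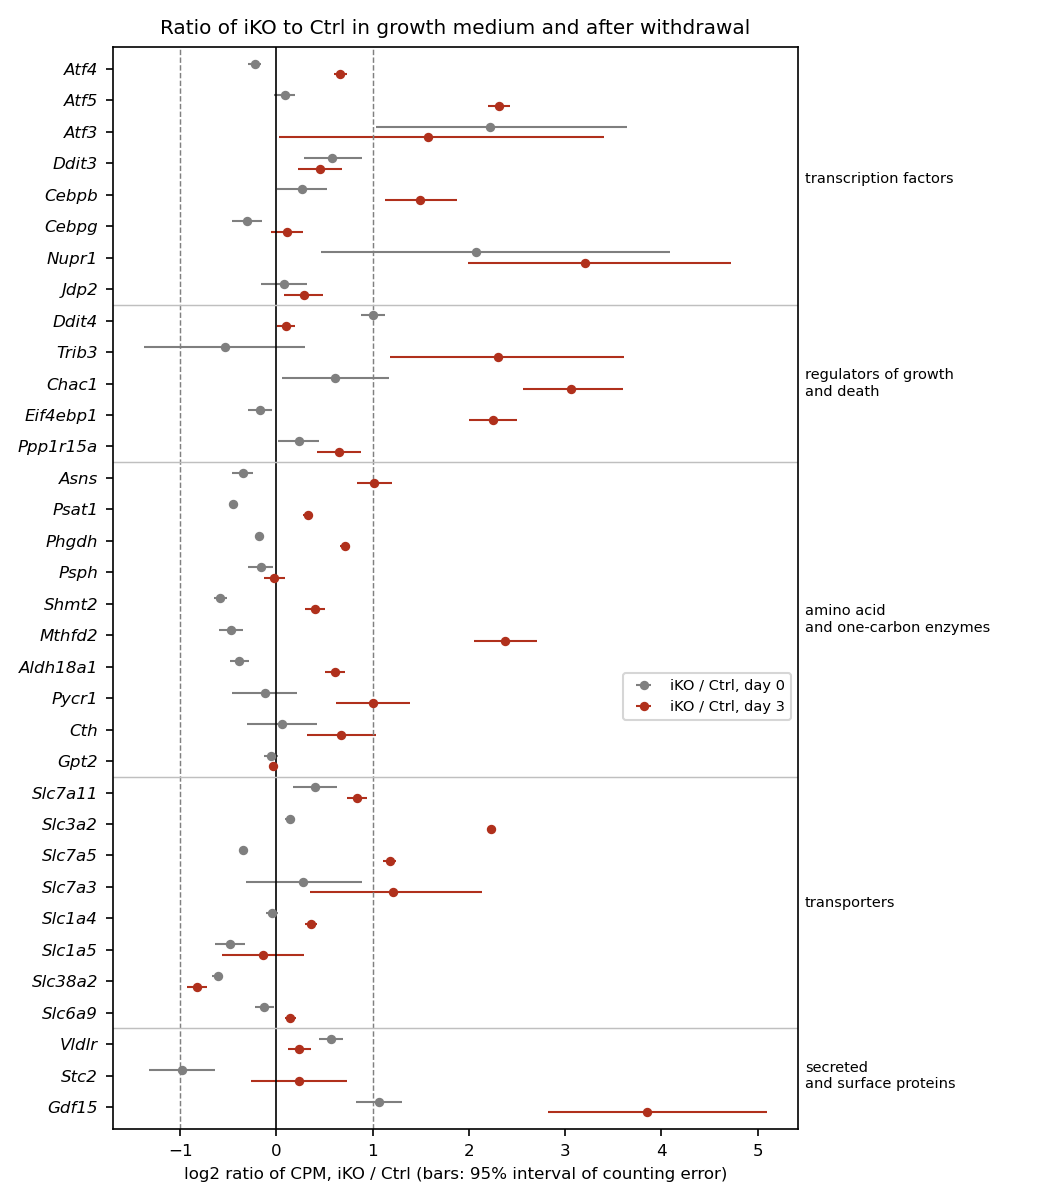
Log2 ratio of CPM, iKO to Ctrl, of each gene at day 0 (grey) and day 3 (red), with 95% intervals of counting error as bars and dashed lines at 2-fold. Most red points lie right of 0 and Slc38a2 stands left of it, while the grey points scatter on both sides of 0.

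**Figure D3:**
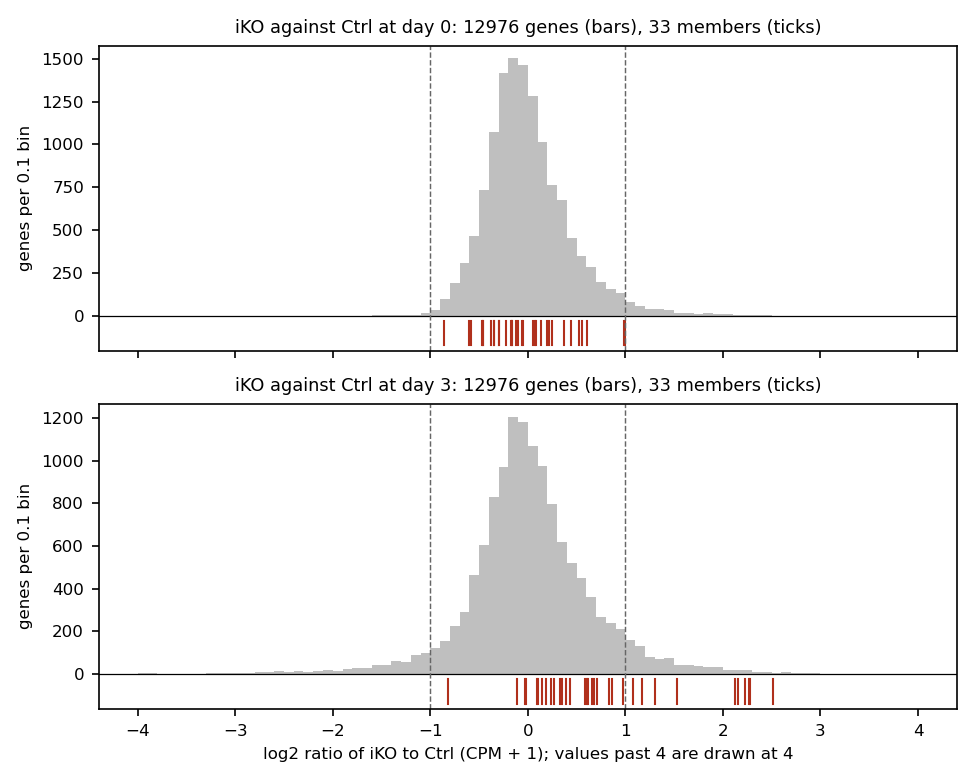
Distribution of the log2 ratio of iKO to Ctrl over 12976 genes (grey bars, genes per 0.1) with the 33 genes of the ATF4 group as red ticks, at day 0 above and day 3 below. The ticks surround 0 at day 0 with a median of -0.10, and at day 3 they lie mostly to the right with a median of 0.61.

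The transcription factors were led by Atf5. All 7 with a mean of 1 CPM or more had day 3 log2 ratios above 0 (median 0.66). Of these, 3 were at least 2-fold higher (Atf5, Nupr1 and Cebpb), against 6.27% of all genes. Nupr1 reached that mean only through the day 3 iKO library. Atf4 itself (Entrez gene 11911, chr15:80255184-80257545) had 184 (Ctrl) and 158 (iKO) CPM at day 0 and 139 and 221 CPM after withdrawal. It was 1.17-fold lower in iKO at day 0 (1.11 to 1.22) and 1.58-fold higher at day 3 (1.51 to 1.66). Its highest library was therefore day 3 iKO, and its lowest was day 3 Ctrl. Per length, Atf4 was the most abundant of these factors, with a mean of 115 FPKM (fragments scaled to transcript length and depth).

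Atf5 (Entrez gene 107503, chr7:44812256-44816658) encodes a bZIP factor whose translation is also controlled by upstream reading frames. Its level was 65.1 CPM in Ctrl against 69.2 in iKO at day 0 and 38.8 against 192 at day 3. The day 3 iKO library was 4.95-fold above Ctrl (4.58 to 5.36), and the other 3 libraries stood between 38.8 and 69.2 CPM. Cebpb (Entrez gene 12608, chr2:167688915-167690432), a dimer partner of ATF4, had 10.9 and 13.1 CPM at day 0 and 4.23 and 11.9 at day 3 in Ctrl and iKO. The day 3 ratio was 2.82-fold (2.19 to 3.66), and day 3 Ctrl was the library that stood apart while the other 3 were close. Nupr1, a small nuclear protein induced by stress, had 0.197 and 0.826 CPM at day 0 and 0.298 and 2.76 at day 3, a 9.24-fold higher level in iKO at day 3 (3.97 to 26.3) with a wide interval from few counts.

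The other factors were closer. Ddit3, which encodes the death-promoting factor CHOP, had 7.48 and 11.2 CPM at day 0 and 14.0 and 19.2 at day 3 in Ctrl and iKO, 1.50-fold (1.22 to 1.85) and 1.37-fold (1.17 to 1.61) higher in iKO. The bZIP gene Jdp2 was 1.22-fold higher at day 3 (1.06 to 1.40), and the interval of the partner gene Cebpg held 1 (0.963 to 1.21). Atf3, an immediate stress factor, gave 7 counts in day 0 Ctrl, 35 in day 0 iKO, 5 in day 3 Ctrl and 14 in day 3 iKO. It was 4.66-fold higher at day 0 (2.04 to 12.4), and it was the only one of the 34 in the authors' deposited table for day 0, which lists 103 genes. That table gives Atf3 a log2 ratio of 2.34 and an FDR of 2.61e-05, which compares these libraries and not cultures.

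Among regulators of growth and death, 3 of 5 exceeded Ctrl by at least 2-fold at day 3, against 6.27% of all genes. The median log2 ratio of the 5 was 1.08. Trib3, among the 3, reached the mean of 1 CPM only through the day 3 iKO library. Chac1 (Entrez gene 69065, chr2:119351242-119354326), with the single core shown above, had 2.26 CPM in day 0 Ctrl, 3.44 in day 0 iKO, 1.79 in day 3 Ctrl and 14.9 in day 3 iKO. The ratio was 1.52-fold at day 0 (1.04 to 2.25) and 8.35-fold at day 3 (5.89 to 12.2). The other 3 libraries lay between 1.79 and 3.44 CPM, and day 3 iKO far above them. Eif4ebp1 (Entrez gene 13685, chr8:27260327-27275656) encodes 4E-BP1, a repressor of cap-dependent translation that mTORC1 inactivates. Its levels were 50.4 and 44.8 CPM at day 0 and 8.46 and 40.1 at day 3 in Ctrl and iKO, 4.75-fold higher in iKO at day 3 (4.01 to 5.64). Here day 3 iKO was near both day 0 libraries and day 3 Ctrl was low.

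Trib3, a pseudokinase gene whose product restrains ATF4 and AKT, had 1.52 and 1.06 CPM at day 0 and 0.398 and 1.96 at day 3, 4.93-fold higher in iKO at day 3 (2.26 to 12.3). Ppp1r15a encodes GADD34, the phosphatase subunit that reverses eIF2 phosphorylation, and was 1.57-fold higher at day 3 (1.34 to 1.84). Ddit4, which encodes the mTORC1 inhibitor REDD1 and was the most abundant of the 5 per length (mean 45.5 FPKM), followed another order. Its levels were 39.5 (Ctrl) and 79.2 (iKO) CPM at day 0 and 89.2 and 95.6 CPM after withdrawal. The ratio was 2.01-fold at day 0 (1.84 to 2.18) and 1.07-fold at day 3 (1.00 to 1.14), so the Ctrl library at day 0 was the low one. On the log2 scale Ddit4 was at 0.99 at day 0, just under the threshold, and at 1.11 when libraries were scaled by their totals.

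The enzymes differed in direction between the days. At day 0, 9 of 10 had log2 ratios below 0 (median -0.26), where 43.5% of all genes lay above 0. At day 3, 8 of 10 lay above 0 (median 0.59), where 48.7% of all genes did. Of the 10, 1 was at least 2-fold higher (Mthfd2), against 6.27% of all genes. Pycr1 and Gpt2 lay on the other side of 0 at day 0 when libraries were scaled by their totals. Mthfd2 (Entrez gene 17768, chr6:83305704-83326011) encodes a mitochondrial folate enzyme of dividing cells. It had 59.8 CPM in Ctrl against 43.1 in iKO at day 0 and 4.68 against 24.2 at day 3. In iKO it was 1.39-fold lower at day 0 (1.27 to 1.51) and 5.18-fold higher at day 3 (4.14 to 6.54). Both day 3 libraries were below both day 0 libraries.

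Asns (Entrez gene 27053, chr6:7675165-7693209), asparagine synthetase, had 69.1 and 54.2 CPM at day 0 and 19.0 and 38.4 at day 3 in Ctrl and iKO. It was 1.28-fold lower in iKO at day 0 (1.18 to 1.38) and 2.02-fold higher at day 3 (1.79 to 2.30). Its libraries fell in the same order as those of Mthfd2, with day 0 Ctrl highest and day 3 Ctrl lowest. In the serine pathway, Phgdh, the first enzyme, had 345, 306, 228 and 374 CPM in day 0 Ctrl, day 0 iKO, day 3 Ctrl and day 3 iKO, 1.64-fold higher in iKO at day 3 (1.58 to 1.70). Psat1, the second, had 537, 392, 259 and 325 CPM, 1.37-fold lower at day 0 (1.33 to 1.41) and 1.26-fold higher at day 3 (1.21 to 1.30), and was the most abundant enzyme per length (mean 174 FPKM). Psph, the last, had an interval that held 1 at day 3 (1.01-fold lower, 0.941 to 1.09). The steps of this pathway thus did not differ alike.

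Shmt2, which passes serine carbon into mitochondrial folate, had 233 and 156 CPM at day 0 and 68.6 and 90.4 at day 3 in Ctrl and iKO. It was 1.50-fold lower in iKO at day 0 (1.43 to 1.56) and 1.32-fold higher at day 3 (1.23 to 1.42). The proline enzymes Aldh18a1 and Pycr1 were 1.53-fold (1.42 to 1.64) and 2.0-fold (1.54 to 2.61) higher at day 3. Cth, which makes cysteine, was 1.59-fold higher (1.25 to 2.05). Gpt2, a mitochondrial alanine aminotransferase, had 149 and 143 CPM at day 0 and 350 and 342 at day 3 in Ctrl and iKO. It did not differ beyond counting error at either day, with intervals of 0.991 to 1.10 for a lower level at day 0 and 0.989 to 1.06 at day 3.

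Of the 8 transporters, 2 were past 2-fold above Ctrl at day 3, against 6.27% of all genes. Slc38a2 alone was lower in iKO beyond counting error at both days. Among all genes, 39.5% had an interval below 1 at day 0 and 35.6% at day 3. Slc3a2 (Entrez gene 17254, chr19:8706882-8723369) encodes CD98hc, the heavy chain that carries several amino acid exchangers to the cell surface. Its levels were 275 CPM in day 0 Ctrl, 303 in day 0 iKO, 209 in day 3 Ctrl and 982 in day 3 iKO, and it was the most abundant of the transporters per length (mean 190 FPKM). The day 3 ratio was 4.70-fold (4.55 to 4.87), and the day 3 iKO library alone stood above 303 CPM. Slc7a5 (Entrez gene 20539, chr8:121881146-121907686) encodes LAT1, the leucine exchanger that pairs with CD98hc. It had 461 and 362 CPM at day 0 and 147 and 331 at day 3, 1.27-fold lower in iKO at day 0 (1.23 to 1.31) and 2.26-fold higher at day 3 (2.16 to 2.36). The heavy chain RNA was above its day 0 level in day 3 iKO, and the LAT1 RNA was not.

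Slc7a11, with the paired cores shown above, encodes xCT, the cystine importer that also pairs with CD98hc. It had 13.1 and 17.3 CPM at day 0 and 59.1 and 106 at day 3 in Ctrl and iKO, 1.79-fold higher in iKO at day 3 (1.66 to 1.92). Both day 3 libraries were above both day 0 libraries. The cationic amino acid transporter gene Slc7a3 had between 0.846 and 2.57 CPM and was 2.32-fold higher in iKO at day 3 (1.27 to 4.39), which on the scale with 1 CPM added was a log2 ratio of 0.68. Slc1a4, a neutral amino acid exchanger, was 1.28-fold higher at day 3 (1.22 to 1.34), and the glycine transporter gene Slc6a9, with 82.9 and 75.9 CPM at day 0 and 269 and 297 at day 3, was 1.11-fold higher (1.07 to 1.15).

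Slc38a2, which encodes the glutamine and alanine importer SNAT2, had 321 (Ctrl) and 210 (iKO) CPM at day 0 and 115 and 65.0 CPM after withdrawal. It was 1.53-fold lower in iKO at day 0 (1.47 to 1.59) and 1.77-fold lower at day 3 (1.65 to 1.90), and was the only one of the 34 with a day 3 interval below 1. Slc1a5, the glutamine exchanger ASCT2, had 38.9 and 27.8 CPM at day 0, a 1.40-fold lower level in iKO (1.26 to 1.56), and its day 3 levels of 5.07 and 4.61 CPM did not differ beyond counting error. Both glutamine carriers thus had the lower value in iKO in each pair of libraries.

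Of the genes for secreted and surface proteins, Gdf15 (Entrez gene 23886, chr8:70629393-70632470), a secreted hormone of stressed cells, was past 2-fold above Ctrl at day 3. It had 10.6 CPM in Ctrl against 22.2 in iKO at day 0 and 0.398 against 5.72 at day 3. The ratio was 2.09-fold at day 0 (1.78 to 2.47) and 14.4-fold at day 3 (7.05 to 34.2), and both day 3 libraries were below both day 0 libraries. The day 0 log2 ratio of 0.9975 lay just under the threshold, and it was 1.12 with libraries scaled by their totals. Vldlr, a lipoprotein receptor gene, was 1.48-fold higher at day 0 (1.36 to 1.61) and 1.18-fold higher at day 3 (1.08 to 1.28). Stc2, a secreted glycoprotein gene, had 10.1 and 5.14 CPM at day 0 and 3.38 and 3.98 at day 3. It was 1.97-fold lower at day 0 (1.56 to 2.50), and its day 3 interval held 1 (0.835 to 1.66).

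The comparisons between days share each library with the comparisons between genotypes, so they restate the same levels in another order. In Ctrl, 11 of the 33 were past 2-fold below their day 0 level at day 3, against 15.1% of all genes, and 4 were higher, against 14.6%. The median log2 ratio was -0.54, beside -0.02 for all genes. In iKO, 3 of the 33 were lower, against 11.4% of all genes, and 7 were higher, against 11.2%, with a median of 0.29 beside -0.01. Nupr1, among the 7, reached the mean of 1 CPM only through the day 3 iKO library, in which it was highest. Log2 ratios lay below 0 for 24 of the 33 genes in Ctrl and for 13 in iKO.

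In Ctrl the lower genes included Gdf15, by 26.7-fold (13.3 to 62.6), Mthfd2, by 12.8-fold (10.4 to 15.9), Slc1a5, by 7.66-fold (6.22 to 9.51), and Eif4ebp1, by 5.96-fold (5.06 to 7.05). Over the same days in iKO, Mthfd2 was 1.78-fold lower (1.59 to 2.0) and Eif4ebp1 1.12-fold lower (1.01 to 1.23). Asns was 3.65-fold lower in Ctrl (3.25 to 4.09) and 1.41-fold lower in iKO (1.29 to 1.55), and Slc7a5 3.14-fold lower (3.02 to 3.28) and 1.09-fold lower (1.06 to 1.13). For these genes the day 3 library was far below the day 0 library in Ctrl and closer to it in iKO.

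For Atf5, Slc3a2 and Chac1 the level in iKO was higher at day 3 than at day 0, by 2.78-fold (2.62 to 2.95), 3.24-fold (3.15 to 3.33) and 4.34-fold (3.36 to 5.68). In Ctrl, Atf5 and Slc3a2 were lower at day 3, by 1.68-fold (1.53 to 1.83) and 1.32-fold (1.27 to 1.37), and the interval of Chac1 held 1. Some genes differed between the days in the same direction in both genotypes. Slc7a11 was 4.52-fold higher at day 3 in Ctrl (3.95 to 5.18) and 6.13-fold in iKO (5.48 to 6.86), Slc6a9 3.24-fold (3.07 to 3.42) and 3.91-fold (3.71 to 4.14), and Gpt2 2.35-fold (2.25 to 2.45) and 2.39-fold (2.29 to 2.50). Slc1a5 was lower by 7.66-fold in Ctrl and by 6.03-fold in iKO (4.81 to 7.64).

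**Figure D4:**
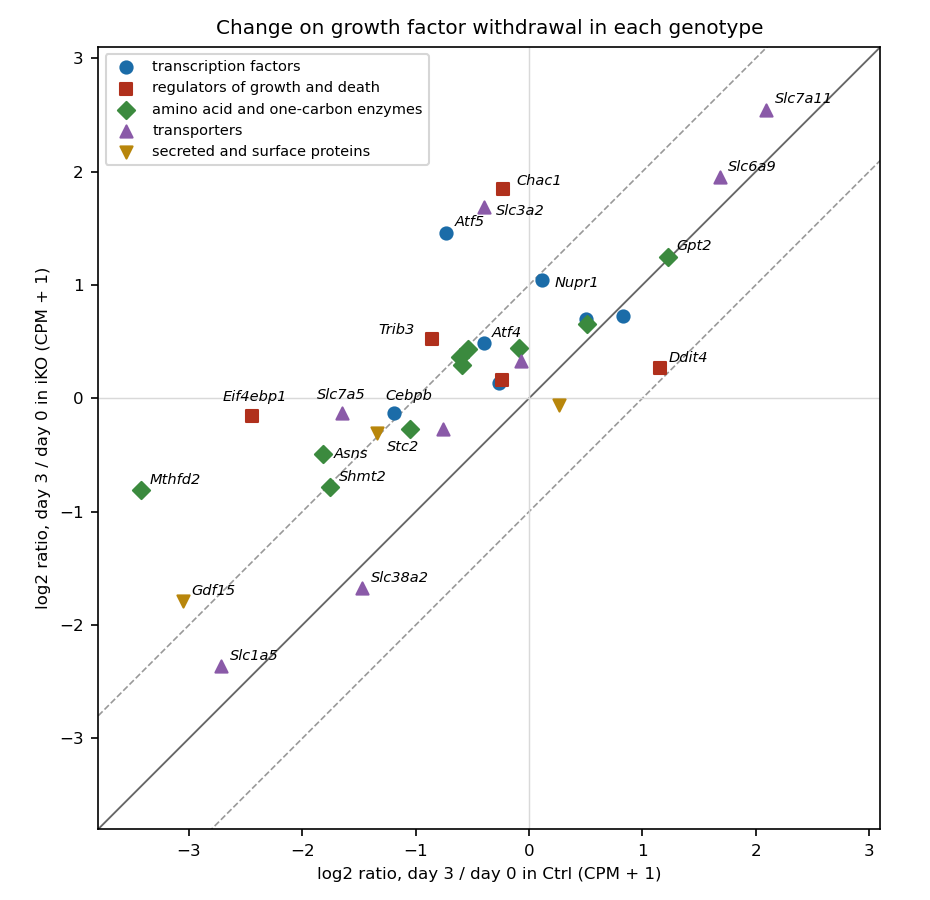
Log2 ratio of day 3 to day 0 in Ctrl (horizontal) against that in iKO (vertical) for the 33 genes, by role, with a solid line where both are equal and dashed lines 1 unit apart from it. Mthfd2, Eif4ebp1, Atf5, Slc3a2 and Chac1 lie more than 2 units above the line of equality, and Gpt2 and Slc38a2 lie near it.

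Taking the day 3 log2 ratio of iKO to Ctrl minus that at day 0, 11 of the 33 genes had a difference of at least 1, against 3.71% of all genes, and 0 had one of -1 or less, against 5.5%. The median difference was 0.88, beside 0.06 for all genes. Mthfd2 at 2.61, Eif4ebp1 at 2.29, Atf5 at 2.19, Slc3a2 at 2.09 and Chac1 at 2.07 had the largest differences. Slc7a5, Trib3, Asns, Gdf15, Cebpb and Stc2 followed, between 1.04 and 1.52. Trib3 counts among the 11 only because the day 3 iKO library, in which it was highest, brought its mean to 1 CPM. Ddit4 stood at the other end with -0.89. With 1 library per group there was no error term for these differences.

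Neighbouring pathways were described with lists of genes named for their function. For all of these lists, the shares of all genes at least 2-fold higher in iKO were 2.67% at day 0 and 6.27% at day 3. The shares at least 2-fold lower were 0.331% and 4.76%. Of other reported ATF4 targets, 2 of 14 were past 2-fold above Ctrl at day 3 and 0 past 2-fold below it, with a median log2 ratio of 0.39. Sesn2, which encodes a leucine sensor that restrains mTORC1, had 67.5 CPM in day 0 Ctrl, 161 in day 0 iKO, 38.6 in day 3 Ctrl and 153 in day 3 iKO, 3.97-fold higher at day 3 (3.66 to 4.30). Sesn2 was thus high in both iKO libraries. Vegfa, an angiogenic growth factor gene, was 2.07-fold higher (1.92 to 2.23).

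At day 3 genes upstream of ATF4 and genes of tRNA charging differed less than the ATF4 group. At day 0 their medians lay further below 0 than the -0.10 of that group. Of 20 cytosolic aminoacyl-tRNA synthetases, 0 were at least 2-fold apart at either day. Their median log2 ratio was -0.35 at day 0, with 19 of 20 below 0, and 0.09 at day 3. Cars and Aars, which charge cysteine and alanine tRNA, were 1.64-fold (1.49 to 1.80) and 1.50-fold (1.44 to 1.56) higher at day 3. Of 13 genes for eIF2 kinases, eIF2 and eIF2B subunits and an eIF2 phosphatase subunit, 11 had log2 ratios below 0 at day 0 (median -0.28). At day 3, 0 of the 13 were 2-fold apart (median -0.07). Among these, the kinase gene Eif2ak2 was 1.60-fold higher (1.46 to 1.76) and the subunit gene Eif2s2 1.28-fold higher (1.21 to 1.36).

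Chaperones and other genes of the ATF6 and XBP1 arms of the unfolded protein response, which can run beside ATF4, showed 0 of 16 at least 2-fold apart at day 3 and a median of -0.05. The extremes were Sdf2l1, a chaperone cofactor of the endoplasmic reticulum, at 1.85-fold lower (1.41 to 2.45) and Xbp1 at 1.70-fold lower (1.49 to 1.94). Of 20 further serine, glycine, folate, proline and related enzymes, 1 was higher and 1 lower (median 0.08). Got1, an aspartate aminotransferase, was 2.10-fold higher (1.88 to 2.34) and Bcat1, a branched-chain aminotransferase, 2.22-fold lower (1.96 to 2.51).

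Of 23 further amino acid transporters, 1 was higher and 3 were lower (median 0.07). Slc7a2, a cationic amino acid transporter, was 3.12-fold higher (2.94 to 3.31) and Slc1a1, a glutamate transporter, 9.98-fold lower (8.46 to 11.8). Of 6 amino acid sensors of mTORC1 with enough counts, Sesn2 alone was 2-fold higher (median of the list -0.14), and the lysosomal sensor gene Slc38a9 was 1.60-fold lower (1.41 to 1.82).

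The p53 pathway differed between genotypes in the same libraries. Of 30 known targets of p53, 7 were past 2-fold above Ctrl at day 0 (median 0.59) and 20 at day 3 (median 1.51), and 0 past 2-fold below it. Cdkn1a, the cell cycle inhibitor p21, was 13.4-fold higher at day 3 (12.5 to 14.4) and Psrc1, a spindle protein gene, 13.0-fold (10.9 to 15.5). Gdf15 and Sesn2 are on that list as well. Of the ATF4 group, Gdf15, Atf3, Ddit4, Chac1 and Trib3 were also listed as reported p53 targets. Of the 4 with a mean of 1 CPM or more, Chac1, Gdf15 and Trib3 were past 2-fold above Ctrl at day 3. The median log2 ratio of the 4 was 1.67. Trib3 is among the 4 only through the day 3 iKO library, in which it was highest. The part of p53, and that of the change in neuron, oligodendrocyte lineage and astrocyte markers given above, in the levels of the ATF4 group was not tested.

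**Figure D5:**
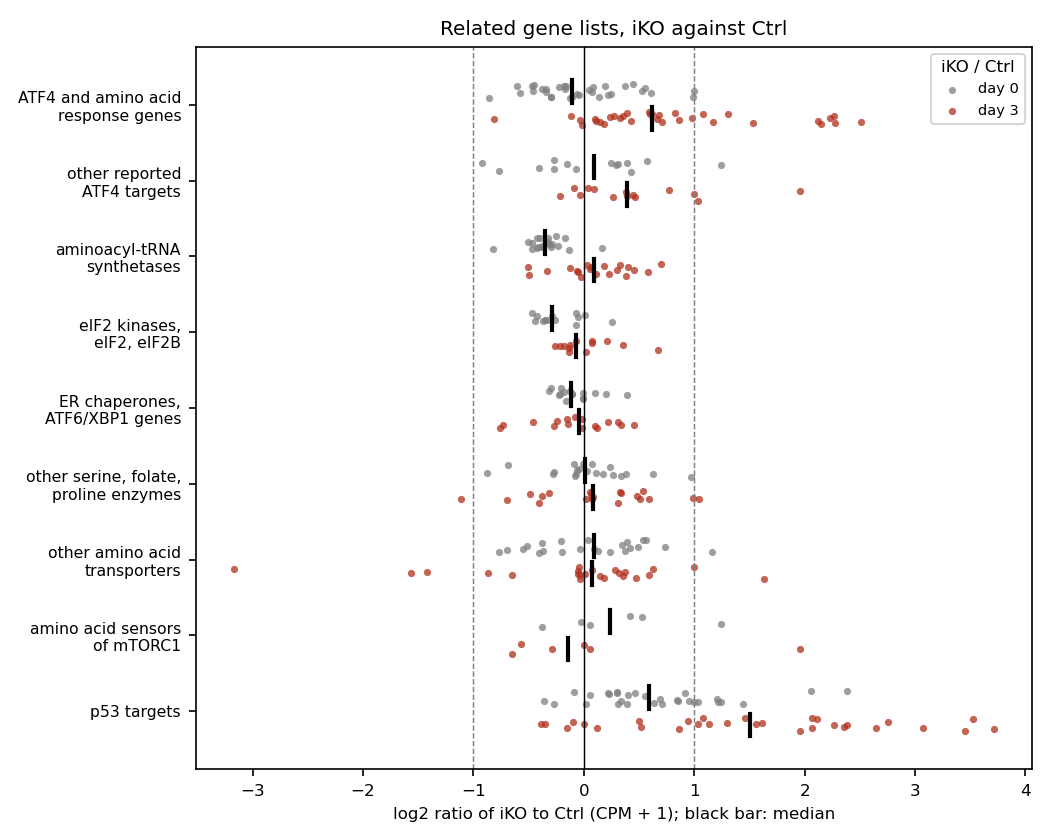
Log2 ratio of iKO to Ctrl of the genes of each list at day 0 (grey) and day 3 (red), with 1 point per gene, medians as black bars and dashed lines at 2-fold. The medians at day 3 are 0.61 for the ATF4 group, 0.09 for tRNA synthetases, -0.05 for ER chaperones and 1.51 for p53 targets.

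Genes with and without the promoter core overlapped in their day 3 ratios. Log2 ratios ran from 0.23 for Vldlr to 2.51 for Chac1 among genes with a core, and from -0.81 for Slc38a2 to 2.28 for Atf5 among those without one in the window. Slc3a2 and Mthfd2, past 2-fold above Ctrl, were also without a core in the window. The Slc7a5, Slc7a3, Slc1a5, Cth and Eif4ebp1 genes had no window. Counts by core are not compared, since Nupr1 and Trib3, which have a core, reached the mean of 1 CPM only with the day 3 iKO library, in which they were highest.

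The authors also estimated counts for single RefSeq transcripts, and several genes with more than 1 model had shares that differed between libraries. The examples here were chosen after their values were seen. Of the Ddit3 count, 1 curated model held 27.7% in day 0 Ctrl, 53.5% in day 0 iKO, 49.6% in day 3 Ctrl and 74.1% in day 3 iKO, with binomial (Clopper-Pearson) 95% intervals of 20.7 to 35.5, 47.2 to 60.1, 43.7 to 55.6 and 69.3 to 78.5. Of the Slc38a2 count, 1 predicted model held 1.19%, 8.88%, 2.30% and 34.1% in the same order, so the curated Slc38a2 model was lower still in day 3 iKO than the gene total. The less abundant of the Aldh18a1 models held 8.75%, 4.12%, 12.5% and 29.1%, and 1 predicted Vldlr model 22.1%, 37.9%, 74.2% and 86.8%. In genes with few counts single models went from most of the count to none, as 1 Slc7a3 model did at day 3 with 95.9% in Ctrl and 0% in iKO. For Atf4 the main model held 66.3% and 71.5% at day 0 and 60.8% and 60.0% at day 3, and for Slc3a2 the main model held between 74.3% and 80.2%. The 3 Cebpb models each held 33.3% in every library, the share an even split gives, so they were not told apart by the reads. Such estimates divide reads that fit several models, and the intervals do not include that error.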

How the data were processed

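Each deposited file holds, per RefSeq transcript, an expected count and an expression value made by the authors. HISAT, Bowtie2, StringTie and mm10 are named, per the submitters' processing notes, without roles. The deposited expression value is unnamed in the header and was taken as FPKM, since its ratio to the count differed between libraries by a constant (100% of transcripts within 2%). The authors' deposited tables give a log2 ratio and an FDR, a p-value adjusted by a method not given in the sources used here. Expected counts were summed per gene over 55122 transcripts and rounded. Symbols and promoters came from RefSeq tables (GRCm38.p6). TMM scaling used edgeR 4.0.16 (R 4.3.3) and exact conditional (Clopper-Pearson) intervals scipy 1.17.1. TMM factors were 0.966, 1.06, 1.02 and 0.962 in the order day 0 Ctrl, day 0 iKO, day 3 Ctrl and day 3 iKO. Reads are not independent molecules. Ratio code was tested on simulated counts.

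The 34 genes and the lists were chosen with earlier results of these data known. All 34 are reported, with every library's value for those 2-fold apart between genotypes at day 0 or day 3, for Atf4 and for the highest FPKM per role, and the 2 largest day 3 ratios of each further list. Results were recomputed with a pseudocount of 0.1 or 5 CPM, a minimum of 5 CPM or none, scaling by totals, by DESeq2 1.42.0 size factors or by TMM without ribosomal protein and histone genes, and from the FPKM values.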

Additional observations from a re-analysis of the deposited data

Results flagged for a closer look

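For 10 of the 33 genes with a mean of 1 CPM or more (30.3%) the ratio of iKO to Ctrl lay on opposite sides of 1 at the days, lower in iKO at day 0 and higher at day 3, each beyond its counting interval. Among all 12976 such genes the share was 6.94%, and 4.34% lay the other way round, as 0 of the 33 did. With 1 library per group this difference was not tested. On the log2 scale, day 3 minus day 0, it was 2.61 for Mthfd2, 2.29 for Eif4ebp1, 1.52 for Slc7a5, 1.33 for Asns, 0.98 for Aldh18a1 and 0.97 for Shmt2. It was 0.89 for Phgdh, 0.88 for Atf4, 0.78 for Psat1 and 0.27 for Slc6a9. Serine and one-carbon enzymes account for 4 of the 10 (Psat1, Phgdh, Shmt2 and Mthfd2). With libraries scaled by their totals, the day 0 log2 ratio of Slc6a9 moved from -0.13 to 0.00 and that of Eif4ebp1 from -0.17 to -0.04. Phgdh, at -0.18 with TMM, also came closer to 0 under that scaling. The 10 genes and the 6.94% are given for TMM scaling only. The pattern also occurred outside the genes listed for this group. Whether the tRNA synthetases that follow respond to ATF4 themselves was not tested. Of the 20 tRNA synthetases, 19 had log2 ratios below 0 at day 0, and 13 lay above 0 and 7 below 0 at day 3. Their median difference between days was 0.44. Among them, Gars was 1.34-fold lower in iKO at day 0 (1.28 to 1.40) and 1.26-fold higher at day 3 (1.18 to 1.34).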

How the results depend on the processing

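At day 0 the number of genes at least 2-fold higher in iKO was 0, and it became 3 with a pseudocount of 0.1 CPM (Gdf15, Ddit4 and Nupr1), 2 with library totals and 2 with deposited FPKM. Among all genes the shares under these settings were 5.44%, 3.61% and 2.08%. At day 3 the number was 10, and 6 with a pseudocount of 5 CPM (3.31% of all genes), where Cebpb, Gdf15, Nupr1 and Trib3 fell short. Atf5, Chac1, Eif4ebp1, Mthfd2, Slc3a2 and Slc7a5 were past 2-fold under all 9 settings. The 11 differences between days of at least 1 became 7 with a pseudocount of 5 CPM, against 1.77% of all genes. The 0 of -1 or less became 1 with library totals and 1 with deposited FPKM, against 7.40% and 4.82% of all genes. The counts between days in Ctrl and in iKO stayed within 1.5 times under every setting. Of the single log2 ratios of iKO to Ctrl, 24 of 66 moved with library totals and 24 of 62 with deposited FPKM by more than their counting interval. Library totals moved the median of all genes by 0.12 at day 0 and by -0.20 for the difference between days. The day 3 median of the group lay between 0.39 and 0.66 under all settings. No paired analysis was possible because there was 1 library per group. Depth limits Atf3, Nupr1, Trib3 and Slc7a3, and also Gdf15, which had 8 counts in day 3 Ctrl. The day 3 log2 ratio of Gdf15 ran from 0.99 to 3.55 over the settings. No setting replaces the missing replicates.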
